A study of Mus musculus with 7 samples.

Results

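The immunoglobulin adhesion molecules of the nervous system were examined in mouse embryonic stem cells in which NeuroD1, a neuronal factor of the basic helix-loop-helix class, was switched on. The set was chosen by name, with earlier results of these data known. It comprised 9 genes (Ncam1, Ncam2, L1cam, Nrcam, Chl1, Nfasc, Cntn1, Cntn2 and Alcam) of the 21937 in the authors' deposited table, and all 9 had a p-value there. Poly(A) RNA was sequenced from 2 libraries of cells given doxycycline at 500 ng/ml for 48 h and from 2 libraries of uninduced cells. All 4 were A2lox stem cells of 129/Ola background with a Neurod1 transgene under doxycycline control, grown with serum and LIF and passaged off their feeder fibroblasts. NeuroD1 chromatin immunoprecipitation (2 samples, 24 h of induction) and its input (1 sample) were not analysed here. Every doxycycline library carried the transgene, and drug and NeuroD1 effects cannot be told apart.

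Adhesion molecules of this class sit on the cell surface with a row of immunoglobulin domains, in most cases followed by fibronectin type III repeats, and bind the same or related molecules on neighbouring cells. The NCAM and L1 groups are mostly transmembrane proteins, with the L1 group tied to the cytoskeleton through ankyrin, whereas contactins are held in the membrane by a lipid anchor and act with transmembrane partners. In the developing nervous system they guide, bundle and extend axons, and later organise the axon initial segment and the nodes of Ranvier. Several are used as markers of newly formed neurons.

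Values are the authors' group means of normalized read counts, and each p comes from DESeq as run by the authors, Benjamini-Hochberg adjusted over 18283 genes, with an adjusted p of 0.05 as threshold. Values per library, and with them depth and spread, were not used, for a reason given with the processing. The labels do not say whether libraries of one group were separate cultures, and a p-value may then reflect technical spread alone. In bulk RNA, a larger share of cells that express a gene and more RNA per cell cannot be told apart. The authors' deposited table gave Neurod1 a mean of 4371 in induced cells, against 438 in uninduced cells (adjusted p = 4.5e-274), with transgene and endogenous reads not separated. Embryonic stem cell markers were abundant in both groups, and 7 of 8 fell, with summed means of 34667 in induced and 65150 in uninduced cells. Neuron markers rose in 8 of 8 cases, with summed means of 20171 in induced and 5608 in uninduced cells.

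All 9 adhesion genes rose after NeuroD1 induction, by 2.16-fold to 19.6-fold in the authors' deposited table, and 0 fell. Over all genes with a p, 35.5% were called, 19.1% higher and 16.4% lower. A called rise of at least 2-fold was found for all 9 members and for 7.48% of all genes. Since earlier results were known when the set was chosen, these shares are a description and not a test. The median log2 change of the 9 genes was 2.46 with a pseudocount of 1, beside -0.0094 over all genes tested. Summed over the set, the means came to 7646 normalized reads in induced cells and 2148 in uninduced cells, a ratio of 3.56. That sum was 0.0440% of all normalized reads in induced cells and 0.0124% in uninduced cells. Each of the 9 lay above at least 91.0% of tested genes in log2 change. Per kilobase of coding length, the uninduced levels ran from 1.81 for Ncam2 to 240 for Ncam1.

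**Figure D1:**
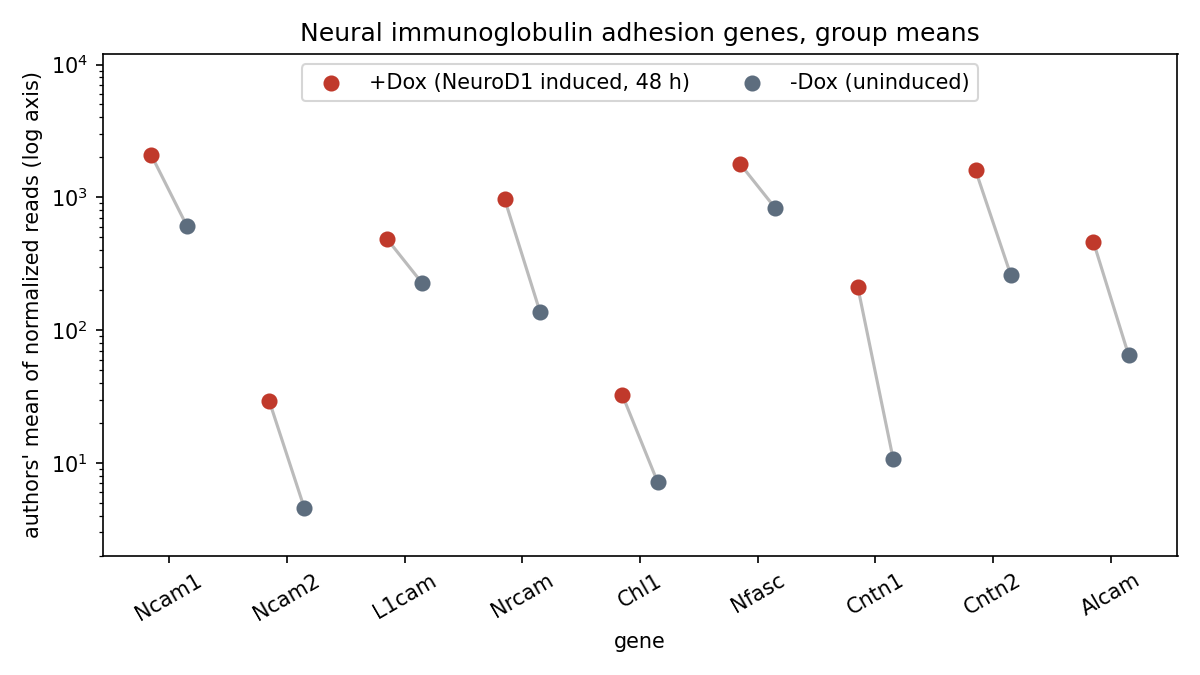
Authors' group means of normalized reads on a log axis for the 9 genes, with induced cells (red) left of uninduced cells (grey) and a line joining the pair; no spread between libraries is shown. Every red point lies above its grey partner, with the steepest line for Cntn1 (210 against 10.7).

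In the NCAM pair both genes rose. Ncam1 encodes the neural cell adhesion molecule, which binds itself across cells and carries polysialic acid in developing neurons. Its mean was 2073 in induced cells and 612 in uninduced cells, a 3.38-fold rise in the authors' deposited table (adjusted p = 9.8e-73). The difference between the group means of Ncam1 was 1460 normalized reads. Ncam2, a paralogue known from the sorting of olfactory axons, had a mean of 29.4 in induced cells and 4.54 in uninduced cells. That was a 6.48-fold rise in the authors' deposited table (adjusted p = 0.014). The annotated exons of Ncam1 share up to 151 bases with Gm11149 on the opposite strand, and the use of strand in the counting is not given in the sources used here. Gm11149 itself had means of 3.38 in induced and 0.464 in uninduced cells in the authors' deposited table (adjusted p = 0.51). Gene-level counts do not separate the transmembrane and lipid-anchored forms of Ncam1.

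The L1 group has 4 members, and all rose, L1cam and Nfasc by smaller folds than Nrcam and Chl1. L1cam, an X-linked gene needed for axon growth and bundling, had a mean of 487 in induced and 226 in uninduced cells. It rose 2.16-fold in the authors' deposited table (adjusted p = 0.00012). Nfasc encodes neurofascin, which assembles the axon initial segment and nodes, and its mean was 1785 in induced and 826 in uninduced cells. Nfasc rose 2.16-fold too in the authors' deposited table (adjusted p = 7.4e-08). These 2 genes had the lowest folds of the set, and differences in fold between members were not tested.

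Nrcam, an ankyrin-binding relative that acts in axon guidance and at nodes, had a mean of 970 in induced cells and 138 in uninduced cells. It rose 7.04-fold in the authors' deposited table (adjusted p = 1.0e-94), the smallest adjusted p of the set. Chl1, the close homologue of L1, was scarce, with a mean of 32.4 in induced and 7.15 in uninduced cells. Its rise was 4.53-fold in the authors' deposited table (adjusted p = 0.017). Chl1 and Ncam2 were the members whose uninduced mean was under 10. Among all 4154 genes with so low a start, 8.91% were called higher. Both calls were lost at an adjusted p threshold of 0.01, which left 7 of 9 members called, and that threshold called 15.6% of all genes higher.

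Both contactins rose strongly. Cntn1, which forms the junction between axon and myelin together with Cntnap1, had a mean of 210 in induced cells and 10.7 in uninduced cells. Its 19.6-fold rise was the largest of the set in the authors' deposited table (adjusted p = 9.5e-10). Its log2 change was above that of 99.5% of tested genes. Cntn2, also called TAG-1, is a glycoprotein of newly growing axons, and its mean was 1595 in induced cells and 259 in uninduced cells. It rose 6.17-fold in the authors' deposited table (adjusted p = 7.5e-09). The difference between the group means of Cntn2 was 1336 normalized reads. Alcam, a homophilic adhesion molecule of axons that is also found on many non-neural cells, had a mean of 464 in induced and 64.7 in uninduced cells. Its rise was 7.17-fold in the authors' deposited table (adjusted p = 2.8e-32).

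**Figure D2:**
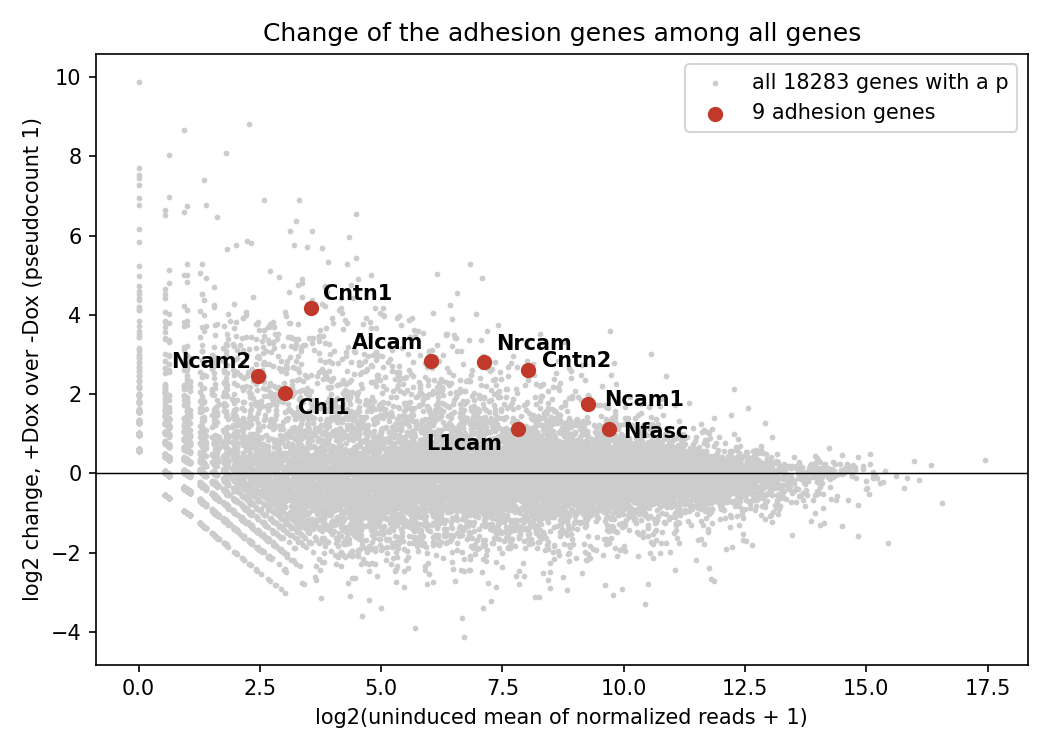
Log2 change with a pseudocount of 1 (induced over uninduced) against log2 of the uninduced mean plus 1, for all 18283 genes with a p (grey) and the 9 adhesion genes (red, named). All 9 lie above 0, from 1.11 for L1cam and Nfasc to 4.17 for Cntn1.

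The 4 genes nearest to Cntn1 in its pair of means were Hes5, Irx5, Glra1 and Pde1c. Nearness was the Euclidean distance over log2(mean + 1) of both groups, among all genes with a p, and so rests on 2 group means and not on libraries. The distances ran from 0.199 for Hes5, a Notch effector gene, to 0.361 for Pde1c, a phosphodiesterase gene. Hes5 had means of 225 in induced and 9.40 in uninduced cells, and Irx5, a homeobox gene, 239 and 11.5 in the same groups. The glycine receptor gene Glra1 had means of 247 in induced and 10.9 in uninduced cells. In the authors' deposited table the adjusted p was 4.8e-47 for Hes5, 6.5e-48 for Irx5, 1.5e-50 for Glra1 and 7.8e-09 for Pde1c. That of Cntn1 was 9.5e-10, and the reason for these differences was not tested.

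The promoter windows of the members were read for E-boxes, the short stretches of DNA that basic helix-loop-helix factors bind, because all members moved in the same direction. The windows are RefSeq sequences of build GRCm38.p6, from 250 bases before to 50 bases after an annotated start. A window was found for 8 of the 9 genes, all but Ncam1, with 12 windows in total. CAGATG (or CATCTG, its other strand) occurred in 2 of the 12 windows, both of L1cam, and CAGCTG in 1 of the 12, of Nfasc. Over all 32851 windows of the table, 17.2% held CAGATG and 16.3% held CAGCTG. The general E-box CANNTG, which contains both, was in 8 of 12 windows, beside 72.3% of all windows. Shown here are the windows that hold these letters, in capitals, and the first window of Cntn1, the gene with the largest fold, in which neither motif was found.
L1cam, chrX:73880741-73881040, minus strand: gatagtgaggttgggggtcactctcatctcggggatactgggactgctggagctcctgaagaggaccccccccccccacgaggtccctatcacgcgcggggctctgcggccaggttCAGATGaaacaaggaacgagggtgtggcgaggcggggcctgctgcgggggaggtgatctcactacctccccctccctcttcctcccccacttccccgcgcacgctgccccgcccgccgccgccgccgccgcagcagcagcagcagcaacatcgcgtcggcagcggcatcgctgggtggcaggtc
Nfasc, chr1:132642809-132643108, minus strand: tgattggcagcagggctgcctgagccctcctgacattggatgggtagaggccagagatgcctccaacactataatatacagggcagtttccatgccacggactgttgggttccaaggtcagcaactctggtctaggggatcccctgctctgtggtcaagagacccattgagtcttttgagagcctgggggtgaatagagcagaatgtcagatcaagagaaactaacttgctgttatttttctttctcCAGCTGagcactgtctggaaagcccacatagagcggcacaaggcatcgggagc
Cntn1, chr15:92050915-92051214, plus strand: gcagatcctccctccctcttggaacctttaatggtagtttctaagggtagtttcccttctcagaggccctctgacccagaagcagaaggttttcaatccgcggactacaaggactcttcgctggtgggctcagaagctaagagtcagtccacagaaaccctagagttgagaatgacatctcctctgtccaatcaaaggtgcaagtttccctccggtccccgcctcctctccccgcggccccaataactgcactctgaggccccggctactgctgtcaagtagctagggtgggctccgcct
The site of L1cam begins 134 bases before the start, and the second annotated start of L1cam, 44 bases away, shares it. The site of Nfasc begins 3 bases before a start that lies inside the gene, and so runs across that start. The window of its other annotated start, further upstream, holds neither motif. Which start is used in these cells was not tested. L1cam, and Nfasc at its inner start only, hold the letters and are the genes with the lowest folds of the set, which was not tested. A match of letters is a description and not a bound site.

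Set per kilobase of coding length, Ncam1 ranked first in both groups, at 814 normalized reads per kb in induced cells and 240 per kb in uninduced cells. In induced cells Cntn2 was next at 511 per kb, before Nfasc at 442 per kb. In uninduced cells Nfasc was next at 205 per kb, before Cntn2 at 82.9 per kb. Alcam (265 per kb), Nrcam (257 per kb) and L1cam (129 per kb) followed in induced cells. The corresponding uninduced levels were 37.0 per kb for Alcam, 36.6 per kb for Nrcam and 59.7 per kb for L1cam. Cntn1 stood at rank 7 in both groups, at 68.7 per kb in induced and 3.50 per kb in uninduced cells. Ncam2 and Chl1 were last, at 11.7 and 8.94 per kb in induced cells, against 1.81 and 1.97 per kb in uninduced cells.

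Neighbours in this order were not tested against their spread, since the per-library columns were not used. Set per kilobase of all exons in place of coding length, Alcam stood at rank 6 and not at rank 4 in induced cells, and L1cam at rank 3 ahead of Cntn2 in uninduced cells. The make-up of the set by coding length changed with induction. The 2 contactins held 23.1% of the summed level per kb in induced cells and 12.9% in uninduced cells. The 4 genes of the L1 group held 33.4% in induced and 45.3% in uninduced cells. The NCAM pair held 32.9% in induced and 36.2% in uninduced cells, and Alcam 10.6% and 5.53% in the same groups.

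**Figure D3:**
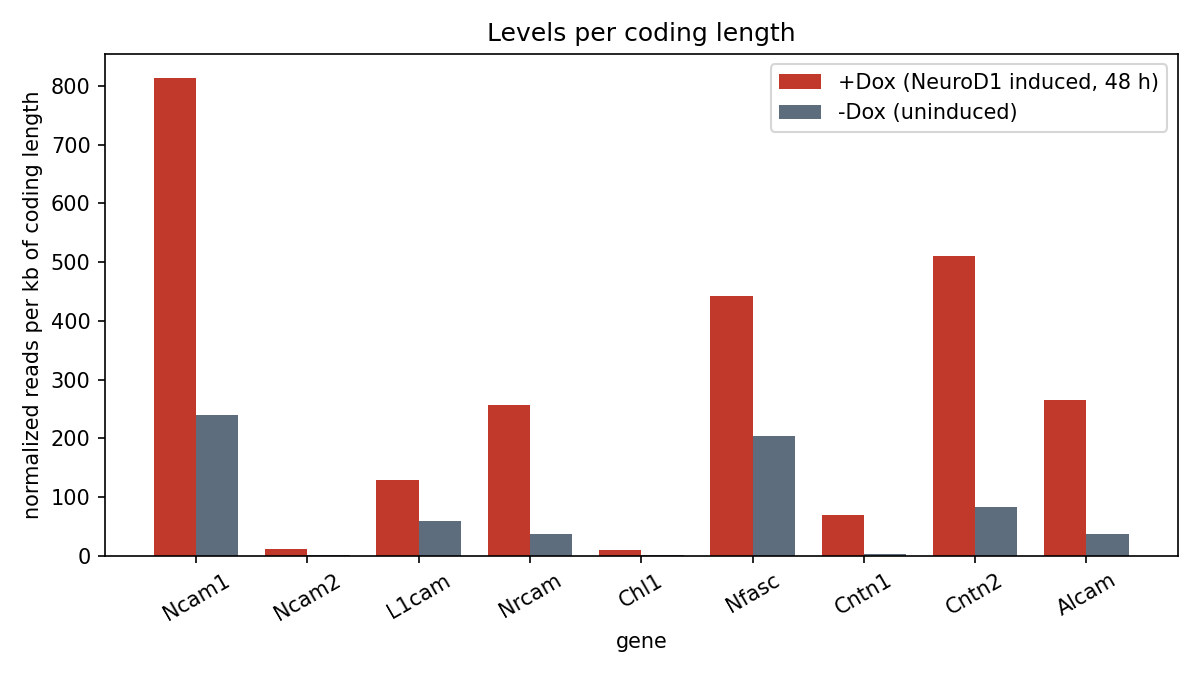
Authors' group means divided by coding length in kb (bars from 0), induced cells (red) left of uninduced cells (grey); no spread is shown. Ncam1 is the tallest bar in both groups (814 and 240 per kb), and the bars of Ncam2 and Chl1 are near 0.

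Among the other genes of the contactin family, 2 of 4 rose and 0 fell, at low levels. Cntn3 had means of 46.5 in induced and 20.0 in uninduced cells (adjusted p = 0.015), and Cntn4 means of 13.8 and 1.07 in the same groups (adjusted p = 0.0044), both in the authors' deposited table. Cntn5 and Cntn6 did not pass, with induced means of 5.55 and 1.95. In gene order Chl1 lies on chromosome 6 between Cntn3 and Cntn6, with Cntn4 next, and Nfasc lies next to Cntn2 on chromosome 1. Of the 16 non-member genes directly beside a member, 15 had a p, and of these 7 rose, 3 fell and 5 did not pass. The shares over all genes with a p, 19.1% higher and 16.4% lower, stand beside these counts and those of the lists below. Lrrn2, on the other side of Nfasc, rose 3.28-fold in the authors' deposited table (adjusted p = 4.4e-13). Tmem81, on the other side of Cntn2, fell to 0.596 of its uninduced mean in the same table (adjusted p = 0.0083). These 2 neighbours were picked once values were known.

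Transmembrane partners of contactins, the Cntnap genes, rose in 2 of 6 tested cases and fell in 0, with 1 more at 0 in both groups. Cntnap1, the partner of Cntn1 at the junction with myelin, had a mean of 216 in induced and 28.8 in uninduced cells, a 7.50-fold rise in the authors' deposited table (adjusted p = 3.4e-28). Cntnap5a had a mean of 16.4 in induced cells and was listed at 0 in uninduced cells (adjusted p = 6.0e-05 in the authors' deposited table). Cntnap2, a partner of Cntn2, did not pass, with means of 60.6 in induced and 48.2 in uninduced cells (adjusted p = 0.56 in the authors' deposited table).

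The ankyrin and spectrin genes, read as the cytoskeletal side of the L1 group, were mixed. Of 8 such genes 1 rose and 4 fell (median log2 change -0.23). The 4 that fell were spectrin genes, and no ankyrin gene fell. Ank2 had a mean of 1438 in induced and 753 in uninduced cells and rose 1.91-fold in the authors' deposited table (adjusted p = 1.4e-17). The anchor of the axon initial segment, Ank3, did not pass, with means of 1209 in induced and 1403 in uninduced cells (adjusted p = 0.097 in the authors' deposited table). Sptbn4 (listed as Spnb4), the spectrin of the initial segment and nodes, fell to 0.498 of the uninduced level in the authors' deposited table (adjusted p = 6.6e-08). The spectrin genes Sptb and Sptbn1, also listed under older symbols, fell to 0.662 and 0.843 of the uninduced level, as given in the authors' deposited table.

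Enzymes that modify these proteins were mixed, with 2 of 5 higher and 1 lower. St8sia2, which builds polysialic acid on Ncam1, had a mean of 953 in induced cells and 147 in uninduced cells, a rise of 6.49-fold in the authors' deposited table (adjusted p = 1.9e-26). St8sia4, the other enzyme of that reaction, had means of 28.9 in induced and 20.2 in uninduced cells and did not pass (adjusted p = 0.53 in the authors' deposited table). Among the surface proteases that shed adhesion molecules, Adam10 rose 1.68-fold (adjusted p = 1.6e-17) and Adam17 fell to 0.771 of its uninduced mean (adjusted p = 0.00013) in the authors' deposited table. Bace1 did not pass, at 824 in induced and 814 in uninduced cells.

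Matrix ligands and receptor phosphatases that bind the L1 and contactin groups rose in 3 of 7 cases and fell in 1. Tenascin C (Tnc) rose 2.99-fold (adjusted p = 1.9e-24) and neurocan (Ncan) 1.62-fold (adjusted p = 3.8e-09) in the authors' deposited table. Tenascin R (Tnr) had means of 9.89 in induced and 1.00 in uninduced cells (adjusted p = 0.037), and agrin (Agrn) fell to 0.755 of its uninduced mean (adjusted p = 0.016), both in the authors' deposited table. Signalling partners rose in 6 of 9 cases and fell in 1. Gfra1, a GDNF receptor that pairs with Ncam1, rose 3.82-fold (adjusted p = 7.2e-45) in the authors' deposited table. The L1cam partner Nrp1, a semaphorin receptor, rose 5.04-fold (adjusted p = 3.6e-08) there. Fyn, a kinase acting below Ncam1 and contactins, rose 2.37-fold (adjusted p = 9.6e-22) and Cd24a, an L1cam ligand, 1.59-fold (adjusted p = 2.7e-11) in the authors' deposited table. Fgfr1, a receptor that Ncam1 and L1cam engage, fell to 0.872 of the uninduced level in the authors' deposited table (adjusted p = 0.021).

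Of 23 other neural immunoglobulin adhesion genes 12 rose and 4 fell (median log2 change 0.77). The smallest adjusted p was that of Mdga1, a lipid-anchored regulator of neuroligins, at 941 in induced and 80.9 in uninduced cells (adjusted p = 2.3e-123 in the authors' deposited table). Cadm3, a synaptic adhesion gene, rose 10.8-fold (adjusted p = 7.7e-81) in the authors' deposited table. Kirrel3 and Sdk1, which sort synaptic partners, rose 11.3-fold (adjusted p = 1.8e-11) and 12.6-fold (adjusted p = 6.5e-11) there, and both were chosen by their values. The members that fell were Kirrel2, Thy1, Nectin2 (listed as Pvrl2) and Dscaml1, at 0.252, 0.376, 0.539 and 0.557 of the uninduced level, as given in the authors' deposited table.

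Immunoglobulin adhesion genes of epithelia, endothelia and blood cells had the opposite balance, with 2 of 13 higher and 7 lower (median log2 change -0.52). Pecam1, also expressed by stem cells, fell to 0.234 (adjusted p = 9.4e-73) and Bcam, a laminin receptor, to 0.267 (adjusted p = 9.4e-67) of the uninduced means in the authors' deposited table. The tight junction gene F11r fell to 0.466 (adjusted p = 1.4e-31) and its relative Jam2 to 0.481 (adjusted p = 8.4e-17) of the uninduced means there. Mcam, Icam1 and Nectin4 (listed as Pvrl4) fell too, to 0.642, 0.698 and 0.327 of the uninduced level, as given in the authors' deposited table. The 2 that rose were Jam3, by 1.65-fold, and Vcam1, by 6.22-fold, as given in the authors' deposited table, and both were picked once values were known. Over the 8 lists of partners and relatives together, 30 of 75 tested genes rose and 18 fell, beside 19.1% higher and 16.4% lower over all genes. No list was tested against these shares.

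**Figure D4:**
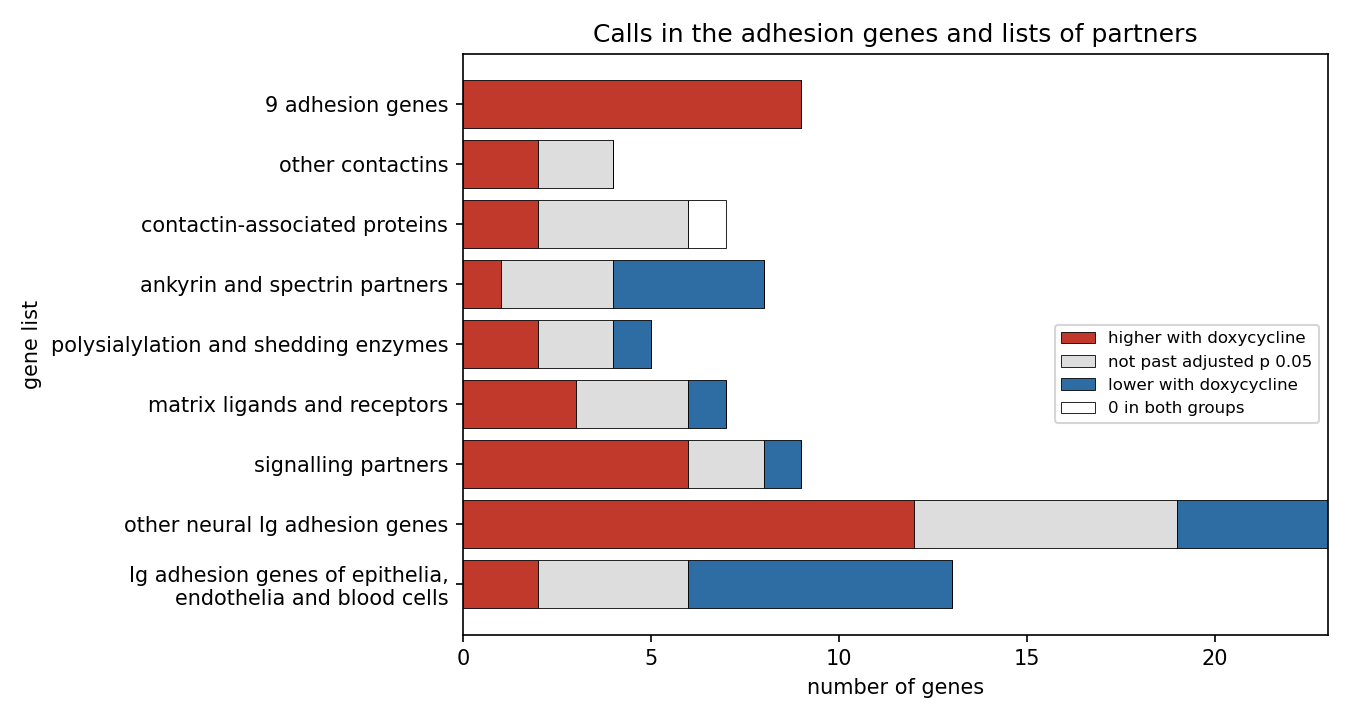
Number of genes that were higher (red), lower (blue) or not past an adjusted p of 0.05 (grey), and at 0 in both groups (white), for the 9 adhesion genes and 8 lists of related genes. The 9 adhesion genes are all red, whereas blue exceeds red for ankyrins and spectrins (4 against 1) and for immunoglobulin adhesion genes of other tissues (7 against 2).

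Several of the 9 genes are also made by glia, neural crest cells or fibroblasts, and markers of these cells were measured beside them. Of 10 fibroblast markers 4 rose and 2 fell, with summed means of 6089 in induced and 3568 in uninduced cells. Those that rose were Acta2 (2702 in induced and 904 in uninduced cells), Pdgfrb (287 and 115 in the same groups), Pdgfra (96.0 and 33.9) and Col3a1 (485 and 265). Those that fell were Thy1 (56.9 and 151) and Dcn (10.9 and 59.2). Col1a1 and Col1a2, at 1329 and 1088 in induced cells and 970 and 1042 in uninduced cells, did not pass, nor did Lum and Postn. Of 9 astrocyte and oligodendrocyte markers 1, Mbp, rose and 0 fell, and their sums were 678 in induced and 458 in uninduced cells. Mbp had means of 336 in induced and 138 in uninduced cells (adjusted p = 0.00039 in the authors' deposited table). Of those that did not pass, Aqp4 was at 5.94 in induced and 0.464 in uninduced cells. S100b was at 0.477 in induced cells and at 0 in uninduced cells, and Gfap at 18.0 and 14.8 in the same groups. Of 7 Schwann cell and neural crest markers 3 rose and 1 fell, with sums of 2062 in induced and 1533 in uninduced cells. Pmp22 was the largest part of the induced sum (1100 in induced and 289 in uninduced cells), and the median log2 change of the list was -0.24. Ngfr (559 and 265) and Tfap2a (59.9 and 25.3) rose too, and Erbb3 fell (180 and 756). Endothelial and blood markers rose in 1 and fell in 2 of 6 cases, with sums of 1352 in induced and 2285 in uninduced cells. The falls were in Pecam1 (296 in induced and 1262 in uninduced cells) and Tek (383 and 644), and Kdr rose (337 and 159). The median log2 change of the list was 0.021. Pecam1 and Thy1 were also counted in the adhesion lists above, and Sox10 in both the glial and the neural crest list. Beside these counts, 19.1% of all genes with a p were called higher and 16.4% lower. The part of these cell types in the rises of the 9 genes was not tested.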

How the data were processed

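Per the submitters' processing notes the RNA tools were DESeq, HTSeq 0.5.4p1, SAMtools 0.1.19, TopHat2 2.0.8 and FastQC 2.6.14, on build mm9, with roles and settings not given. The authors' deposited table holds group means of normalized reads (a signal with no unit of length), their ratio or fold change, its log2 and p-values. A second deposited table has 4 per-library columns whose names match no label, so they were not used. Assigning columns to groups by matching their values was not done, by choice of method, although the values might allow it, and so no limma fit, spread per group or test without a library was made. The planned test was the authors' DESeq p, at an adjusted p of 0.05. Log2 changes were recomputed after adding 1 to each mean, a scale on which low genes change less. The members and lists were chosen with earlier results of these data known. All 9 members are named. From each list come the up to 4 called genes with the smallest adjusted p and any that fell, with the 4 genes nearest to the member of largest rise. Others named were chosen after their values were seen. Values of 2 list genes are not reported here. Older symbols of 11 list genes were matched through the GRCm38.p6 RefSeq gene table. Coding lengths, the longest per gene, and exon lengths came from GENCODE M21 (GRCm38), in place of the planned RefSeq proteins, and a planned comparison of protein sequences was not made. The adjustment was tested on simulated data. Python 3.11.15, pandas 2.3.3, numpy 2.4.6 and matplotlib 3.10.9 were used. Alternatives were pseudocounts of 0.5 and 5, a 0.01 threshold, a 2-fold minimum, minimum means of 10 and 50, and 2 rescalings.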

Additional observations from a re-analysis of the deposited data

How the results depend on the processing

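All 9 members stayed called with a 2-fold minimum and with p adjusted over genes with a mean of 10 or more. Neither setting was a check on the calls. The lowest fold was already 2.16, and the mean of 10 was asked of the higher group only. Ncam2 and Chl1 met it through induced cells alone. At an adjusted p of 0.01, 7 members stayed called. Each of the 36 recomputed log2 changes of single members was above 0, which these settings could not have altered. A pseudocount added to both means keeps the sign. The rescalings were small beside the lowest change, 1.11 for L1cam. The median log2 change of the members, 2.46 with a pseudocount of 1, was 2.57 with 0.5 and 1.85 with 5, with Ncam2 as the middle gene each time. With a pseudocount of 5 Chl1 was at 1.62, beside 2.04 with 1. Rescaling shifted induced over uninduced by -0.0046 (equal totals) and 0.0033 (equal median ratio) on the log2 scale. The share of all genes called was 35.5% with no minimum mean, 44.1% at 10 and 48.4% at 50. Of 32 recomputed list counts 28 stayed within 1.5 times, and the exceptions were counts of 1 or 2 that dropped to 0 or 1 at an adjusted p of 0.01. The falls of Agrn and Fgfr1 were no longer called at that threshold. No paired analysis was possible because the per-library columns carry no name or replicate number of the labels. The planned limma fit, its leave-one-out versions and its replicate block were not run because columns were not assigned to groups from their values, a choice of method that does not make those fits impossible. Members of similar level were not tested against each other.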
